A study of Mus musculus with 8 samples.

Results

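The expression of 34 mouse genes of antigen presentation by major histocompatibility complex (MHC) class I and class II molecules was examined in 8 bulk mammary tumors. The genes were listed by name for their known role, with earlier results of these data known. They comprise 22 genes of a class I arm (heavy chains, light chain, peptide loading, chaperones, immunoproteasome and the regulator Nlrc5) and 12 genes of a class II arm (chains, invariant chain, peptide exchange, endosomal processing and the regulator Ciita). Of the 34 genes, 32 were matched to an identifier among the 35539 in the table, 21 in the class I arm and 11 in the class II arm, and all 32 had a mean of at least 1 TPM (a relative unit that scales each gene to the total of its tumor). The levels of Psmb9 and Ifi30 were not analysed here.

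Tumors 1 to 4 arose in Blg-Cre;Brca1f/f;Trp53+/- mice and are called control tumors, and tumors 5 to 8 arose in mice with the same alleles and HMMR Tg/Tg (HMMR-Tg tumors), with 4 tumors per genotype. All 8 tumors therefore come from mice with a Cre driven by the beta-lactoglobulin promoter, floxed Brca1 and a single intact germline Trp53 copy. Whether the tumors kept that copy was not tested. The genotypes differ in a human HMMR transgene at Rosa26 that Cre switches on. The mice were parous, because this promoter is active in the mammary epithelium in pregnancy and lactation, they were of mixed genetic background, and the labels call them age-matched without giving an age. The labels do not tie tumors to mice, so p-values here reflect only tumor-to-tumor spread, part of which may be technical. The tumors held mammary epithelial transcripts throughout, with Epcam between 477 and 1924 TPM and Krt8 between 351 and 1896 TPM. Endogenous Hmmr averaged 12.5 TPM in the control and 16.5 TPM in the HMMR-Tg group, a log2 difference of 0.37 that did not pass the test (limma, adjusted p = 0.9998), and transcripts of the human transgene were not analysed here. How many reads lie behind a value is unknown, as the unit does not keep it.

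MHC class I molecules are built from a polymorphic heavy chain and beta-2 microglobulin, and they show peptides from the cytosol to CD8 T cells. The peptides are cut by the proteasome, whose catalytic subunits are exchanged for those of the immunoproteasome under interferon gamma, then pumped into the endoplasmic reticulum by the transporter TAP and loaded with the help of tapasin and chaperones. MHC class II molecules pair an alpha and a beta chain on the invariant chain Cd74, exchange a fragment of it for endosomal peptides with the help of H2-DM, and are found mainly on macrophages, dendritic cells and B cells. Transcription of class I genes is driven by Nlrc5 and that of class II genes by Ciita, relatives without a DNA-binding domain of their own. Both are recruited to promoters by RFX, CREB and NF-Y proteins, which bind X1, X2 and Y boxes.

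Promoter sequence was examined first because both regulators act through these boxes. The RefSeq table of promoters (GRCm38.p6, 250 bases before to 50 after each start) held 28 of the 34 genes, 19 of the class I arm and 9 of the class II arm. The 180 bases before the start are printed for 2 genes of each arm whose levels are described below, H2-D1 (chr17:35262914-35263093, plus strand), B2m (chr2:122147507-122147686, plus strand), H2-Aa (chr17:34287824-34288003, minus strand) and H2-Eb1 (chr17:34305687-34305866, plus strand). Capitals mark matches on either strand to the Y box core ATTGG (on the other strand it reads CCAAT), the X2 box core TGACG and the X1 box CTNGCAAC. They also mark the kappa B site of class I promoters (the first capitals in H2-D1) and the core of the interferon-stimulated response element. The latter is the first capitals in B2m, of which the middle pair of bases was left free. The X2 core of H2-Aa lies in the palindrome TGACGTCA and so was matched on both strands.
H2-D1: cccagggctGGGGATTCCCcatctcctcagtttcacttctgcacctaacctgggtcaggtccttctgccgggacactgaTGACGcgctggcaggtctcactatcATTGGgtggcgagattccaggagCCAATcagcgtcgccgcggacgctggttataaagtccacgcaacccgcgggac
B2m: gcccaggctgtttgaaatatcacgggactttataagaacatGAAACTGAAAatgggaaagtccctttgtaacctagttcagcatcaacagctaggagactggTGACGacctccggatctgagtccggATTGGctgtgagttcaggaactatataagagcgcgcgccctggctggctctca
H2-Aa: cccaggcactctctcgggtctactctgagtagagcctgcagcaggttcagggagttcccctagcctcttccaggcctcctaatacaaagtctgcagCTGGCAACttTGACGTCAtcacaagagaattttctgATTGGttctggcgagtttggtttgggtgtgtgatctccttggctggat
H2-Eb1: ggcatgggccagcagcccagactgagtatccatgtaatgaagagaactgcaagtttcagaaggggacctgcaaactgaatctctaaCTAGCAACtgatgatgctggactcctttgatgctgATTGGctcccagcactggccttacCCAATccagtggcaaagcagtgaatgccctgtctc

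In H2-D1, B2m and H2-Aa an X2 core was followed by a Y core after 20, 20 and 21 bases, whereas H2-Eb1 had an X1 box and a Y core and no match to the X2 letters. Of the 28 genes with a promoter entry, 21 held the Y core, against 37.4% of all 32851 promoters. Here and below a gene was counted if any of its promoter entries matched, while the shares are over single promoter entries. The X2 core was found in 13 of the 28 genes, 11 of the class I arm and 2 of the class II arm, against 20.8% of all promoters. The X1 letters were found in 4 genes, H2-Aa, H2-Eb1, H2-Ob and H2-D1, against 3.42%. In the class II genes they began at positions -84, -94 and -90 on the plus strand. The match in H2-D1 was at -212 on the minus strand, away from its X2 core at -101 and outside the printed bases. The kappa B site, a target of the NF-kappa B family, was found in H2-D1, H2-K1, H2-Q6 and H2-Q7 and in 0.107% of all promoters. The letters used for the interferon element were found in B2m, H2-T23, Erap1, Psme1 and Ctss, against 3.44%. Other forms of this element were not searched. A promoter that is not listed here, that of H2-D1 included, may therefore still hold an interferon element. An X2 core followed by a Y core after 19 to 21 bases, a spacing chosen after these promoters were read, occurred in 6 of the 28 genes (B2m, H2-D1, H2-K1, H2-M3, H2-Q7 and H2-Aa) and in 66 promoters in all, or 0.201%. These are letter matches only.

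No antigen presentation gene passed the test between genotypes. The test was limma on log2(TPM + 1) over 14835 genes with Benjamini-Hochberg adjustment, in which 9 genes, 0.0607%, passed an adjusted p of 0.05, and 0 of the 32 genes did (adjusted p = 0.9998 for each). At an unadjusted p under 0.05 there were 2 of the 32 genes, Psmb8 and Tap2, against 3.46% of all genes tested. The means of 24 of the 32 genes were higher in HMMR-Tg tumors and the median log2 difference was 0.35, against 48.7% higher and a median of -0.01 over all genes tested. This lean lay in the class I arm, where 19 of 21 means were higher with a median of 0.49, whereas 5 of 11 class II means were higher with a median of -0.37 (3 of 11 where TPM was rescaled without mitochondrial, milk, immunoglobulin and hemoglobin genes, and 0 of 11 without tumor 7). In these bulk tumors, fewer cells of a type and less RNA per cell cannot be told apart.

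**Figure D1:**
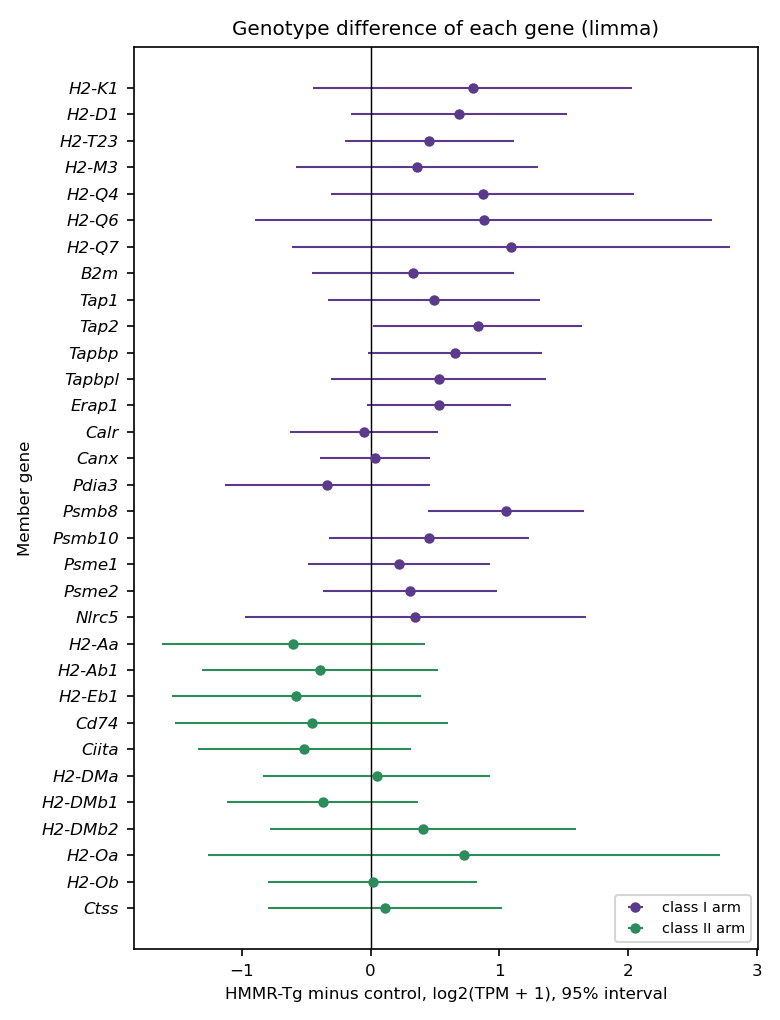
Difference between genotypes for each of the 32 genes, as the HMMR-Tg mean less the control mean of log2(TPM + 1) (x axis), with points for the limma estimate and bars for its 95% interval, class I arm in purple and class II arm in green. Only the intervals of Psmb8 and Tap2 lie above 0, before adjustment over all genes.

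All 7 class I heavy chains were on average higher with HMMR-Tg, with log2 differences between 0.36 and 1.09 and a median of 0.79. These sizes rested on few tumors. Without control tumor 3, H2-Q4 was at 0.36, H2-Q6 at 0.13 and H2-Q7 at 0.35, and without HMMR-Tg tumor 7, H2-M3 was at 0.044. Without tumors 1, 3 and 6, the 3 with the most skeletal muscle transcripts, the sign of H2-K1 (-0.14), H2-Q6 (-0.34) and H2-Q7 (-0.06) turned. H2-K1, a classical heavy chain (chromosome 17, 34132962 to 34137278, mm9), was at 798, 1478, 284 and 1491 TPM in control tumors 1 to 4 and at 881, 1860, 2618 and 1053 TPM in HMMR-Tg tumors 5 to 8. Tumor 3 stood lowest and tumors 6 and 7 highest, and the genotypes overlapped. The log2 difference was 0.79 (SE 0.55), and without control tumor 3 it was 0.27. H2-D1, the other classical heavy chain (35399675 to 35404444), was at 428, 900, 370 and 909 TPM in control and at 739, 1101, 1498 and 718 TPM in HMMR-Tg tumors. Again only tumors 6 and 7 exceeded all control tumors, and the log2 difference was 0.69 (SE 0.37). Of the 31-base words of the coding transcripts, 20.5% of those of H2-K1 and 25.95% of those of H2-D1 are also found in other genes, which bears on how reads were assigned. MHC genes also differ between mouse strains and these mice were of mixed background, and the effect of haplotype on the values was not tested.

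The 3 non-classical heavy chains of the Q region in the set, H2-Q4, H2-Q6 and H2-Q7, had the same 4 highest tumors as H2-K1 (7, 6, 4 and 2) and the same lowest one, tumor 3. H2-Q7, the mouse Qa-2 antigen, was at 103, 177, 18.8 and 202 TPM in control and at 117, 250, 513 and 99.6 TPM in HMMR-Tg tumors. H2-Q6 was at 91.0, 148, 15.9 and 171 TPM in control and at 80.1, 226, 390 and 62.1 TPM in HMMR-Tg tumors. They were 27.3-fold and 24.6-fold higher in tumor 7 than in tumor 3, and neither separated the genotypes. These copies share sequence, with 37.1% of the 31-base words of H2-Q7 and 37.4% of those of H2-Q6 also present in other coding genes, so the split of reads between them is uncertain. Their sum, which depends less on that split, was 34.7 TPM in tumor 3 and 904 TPM in tumor 7, and between 162 and 476 TPM in the other tumors. H2-Q4 was at 116, 186, 38.0 and 194 TPM in control and at 152, 212, 396 and 142 TPM in HMMR-Tg tumors, with 38.6% of its words shared.

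Less of the spread was seen in H2-T23 (Qa-1, which presents leader peptides of other class I chains), at 81.2, 147, 89.4 and 68.1 TPM in control and 103, 147, 179 and 96.5 TPM in HMMR-Tg tumors. H2-M3, which presents formylated peptides, was at 10.2, 15.7, 6.23 and 16.5 TPM in control and 8.77, 10.8, 29.6 and 17.2 TPM in HMMR-Tg tumors. Tumor 7 was the highest in both genes, while the lowest was tumor 4 for H2-T23 and tumor 3 for H2-M3. B2m, the light chain (chromosome 2, 121973422 to 121978819), was at 2498, 2173, 1206 and 2248 TPM in control and 2047, 2083, 4602 and 1869 TPM in HMMR-Tg tumors. Tumor 7 alone exceeded the control range, and the log2 difference of 0.33 was 0.03 without it.

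**Figure D2:**
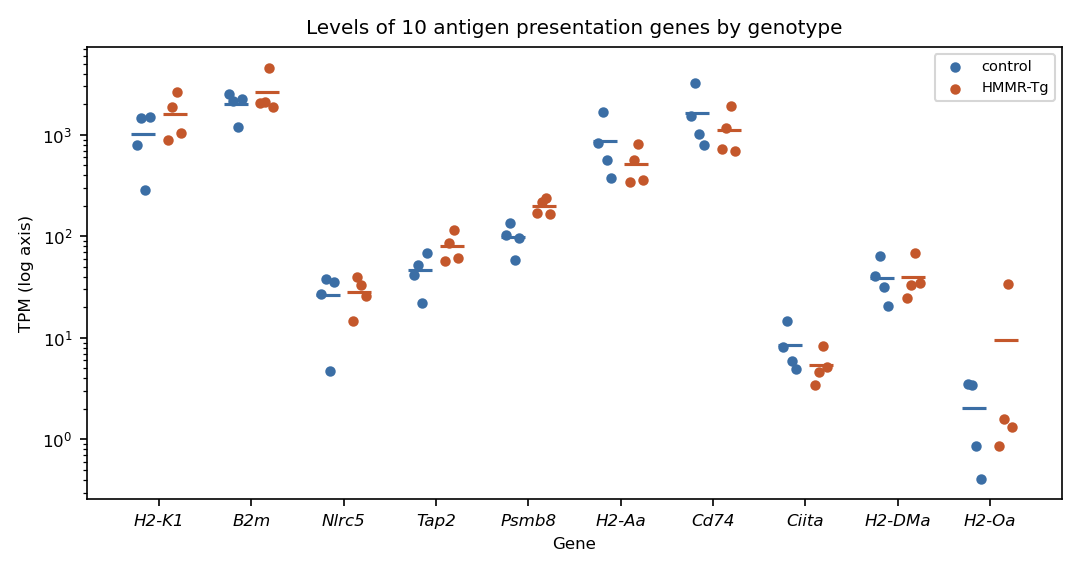
TPM (log axis) of 10 antigen presentation genes, with a point for each tumor, control in blue and HMMR-Tg in orange, and a line at the mean of the 4 tumors. Psmb8 is the gene whose genotypes do not overlap, with 58.9 to 136 TPM in control and 166 to 239 TPM in HMMR-Tg tumors, and the H2-Oa mean in HMMR-Tg tumors is set by tumor 7 at 34.2 TPM.

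Peptide loading genes were higher on average in HMMR-Tg tumors in 5 of 5 cases, with log2 differences from 0.49 to 0.83, none past the adjusted test. Tap2, a subunit of the TAP transporter (chromosome 17, 34340472 to 34353266), was at 41.7, 52.2, 21.97 and 69.2 TPM in control and 57.5, 85.9, 115 and 61.6 TPM in HMMR-Tg tumors. Control tumor 4 lay among the HMMR-Tg values, and the log2 difference was 0.83 (SE 0.36, limma unadjusted p = 0.0457, adjusted p = 0.9998). Its partner Tap1 was at 39.9, 71.9, 26.2 and 55.1 TPM in control and 56.8, 55.8, 115 and 45.8 TPM in HMMR-Tg tumors, with a log2 difference of 0.49 (SE 0.37) that was 0.21 without tumor 7. Tapasin, Tapbp, which bridges TAP and the heavy chain, was at 84.4, 208, 143 and 97.8 TPM in control and 215, 199, 243 and 148 TPM in HMMR-Tg tumors. Its log2 difference was 0.66 (SE 0.30), with control tumor 2 inside the HMMR-Tg range. Tapbpl, a peptide editor related to tapasin, lay between 9.80 and 18.6 TPM in control and between 11.3 and 38.7 TPM in HMMR-Tg tumors. Erap1, the aminopeptidase that trims peptides in the endoplasmic reticulum, was at 22.7, 38.0, 29.8 and 31.6 TPM in control and 33.8, 39.1, 60.9 and 45.9 TPM in HMMR-Tg tumors, with a log2 difference of 0.53 (SE 0.25).

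The general chaperones of the endoplasmic reticulum did not share this lean. Canx was the steadiest gene of the 32, between 206 and 297 TPM over all tumors. Calr was between 757 and 1385 TPM with a log2 difference of -0.05 (SE 0.26), and its lowest value was in tumor 7, where most class I genes were highest. Pdia3, the thiol oxidoreductase ERp57 of the loading complex, was at 747, 367, 711 and 1293 TPM in control and 646, 439, 496 and 702 TPM in HMMR-Tg tumors, a log2 difference of -0.34 (SE 0.36).

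Immunoproteasome genes had higher means in HMMR-Tg tumors in 4 of 4 measured cases, and Psmb8 was the gene of the whole set with the smallest p. Psmb8, the catalytic subunit beta5i (chromosome 17, 34334666 to 34338399), was at 102, 136, 58.9 and 95.3 TPM in control and 171, 217, 239 and 166 TPM in HMMR-Tg tumors. Every HMMR-Tg tumor lay above every control tumor without overlap, as in this direction for 1.04% of all genes tested in the opposite one for 1.19% and in either for 2.23%. The log2 difference was 1.05 (SE 0.27, 95% interval 0.45 to 1.66, limma unadjusted p = 0.00316, adjusted p = 0.9998), rank 42 by p among 14835 genes, and it stayed between 0.83 and 1.23 when any tumor was left out. Without control tumor 3, the lowest of the 8, it was 0.83.

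The other immunoproteasome genes overlapped between genotypes. Psmb10, the subunit beta2i, was at 71.6, 89.0, 60.5 and 25.9 TPM in control and 78.6, 78.6, 88.1 and 66.1 TPM in HMMR-Tg tumors. The proteasome activator genes Psme1 and Psme2 were at 98.5 to 227 TPM and 80.8 to 194 TPM in control and at 123 to 270 TPM and 126 to 221 TPM in HMMR-Tg tumors. All 3 were lowest in control tumor 4, and without it the log2 difference of Psmb10 fell from 0.45 to 0.09. Psme2 shares 62.6% of its 31-base words with Psme2b-ps, so its level is uncertain.

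Each catalytic subunit was set against the constitutive one it replaces. The log2 ratio of Psmb8 to Psmb5 was -0.30, 0.73, -0.57 and 0.41 in control and 0.84, 0.94, 1.63 and 0.63 in HMMR-Tg tumors. The means were 0.07 ± 0.61 and 1.01 ± 0.43 (SD, n = 4 each), a difference of 0.94 that did not pass an exact permutation test (two-sided p = 0.0571, 0.114 adjusted over 2 ratios, with 0.0286 the smallest that 70 arrangements allow). Control tumor 2 alone lay inside the HMMR-Tg range. The log2 ratio of Psmb10 to Psmb7 averaged -1.81 ± 0.89 in the control group and -1.80 ± 0.30 in the HMMR-Tg group (SD, n = 4 each, exact permutation p = 1). The ratio with Psmb9 was not run. Over the constitutive proteasome list, 11 of 17 means were higher in HMMR-Tg tumors with a median log2 difference of 0.14, and 0 passed the test.

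The class II chains leaned the other way, and none passed the test. H2-Aa, the alpha chain of I-A (chromosome 17, 34406276 to 34424772), was at 832, 1678, 571 and 375 TPM in control and 346, 562, 807 and 359 TPM in HMMR-Tg tumors. Control tumor 2 exceeded every other tumor, and the remaining values interleaved. The log2 difference was -0.60 (SE 0.46), and without tumor 2 it was -0.21. H2-Ab1, the beta chain of I-A, was at 552, 1058, 423 and 333 TPM in control and 270, 441, 735 and 314 TPM in HMMR-Tg tumors, with a log2 difference of -0.39 (SE 0.41) that was -0.07 without tumor 2. H2-Eb1, the beta chain of I-E, was at 679, 1346, 444 and 358 TPM in control and 278, 467, 682 and 331 TPM in HMMR-Tg tumors, with a log2 difference of -0.58 (SE 0.43) that was -0.20 without tumor 2. H2-Ea, the alpha chain of I-E, was listed at 0 in all 8 tumors and is a gene that mice of the H2b haplotype do not transcribe.

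Cd74, the invariant chain that guides class II to endosomes (chromosome 18, 60963502 to 60972300), was at 1519, 3264, 1031 and 793 TPM in control and 731, 1166, 1924 and 691 TPM in HMMR-Tg tumors. Tumor 2 was again the highest, and Cd74 was between 0.688 and 0.865 of the summed chains in every tumor. Its log2 difference was -0.46 (SE 0.47), and -0.06 without tumor 2. The ratio of H2-Aa to H2-Ab1 was also narrow, from 1.10 to 1.59. Ciita was far less abundant, at 8.16, 14.8, 5.96 and 4.90 TPM in control and 3.46, 4.61, 8.24 and 5.14 TPM in HMMR-Tg tumors (log2 difference -0.52, SE 0.37).

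Of the 5 peptide exchange genes, 4 were at their highest in tumor 7. H2-DMa, which helps release the invariant chain fragment, was at 40.6, 64.1, 31.5 and 20.5 TPM in control and 24.7, 32.9, 68.0 and 35.1 TPM in HMMR-Tg tumors. Tumors 7 and 2 were nearly level, whereas H2-Aa was 2.08-fold higher in tumor 2 than in tumor 7. H2-DMb1 lay between 51.1 and 113 TPM in control and between 33.6 and 83.0 TPM in HMMR-Tg tumors, and H2-DMb2 between 1.62 and 8.78 TPM and between 3.63 and 16.8 TPM. These copies share 37.5% and 41.3% of their words with other genes, so the split between them is uncertain. H2-Oa, a chain of the H2-DO protein that restrains H2-DM and is best known from B cells and thymic epithelium, was at 3.52, 3.45, 0.853 and 0.412 TPM in control and 0.865, 1.57, 34.2 and 1.33 TPM in HMMR-Tg tumors. Tumor 7 stood 9.71-fold above the next highest tumor, and the log2 difference of 0.73 (SE 0.89) was -0.27 without it. H2-Ob, the partner chain, was at 3.25 TPM in tumor 7 and between 0.785 and 2.59 TPM elsewhere. Ctss, the endosomal protease that cuts the invariant chain, was at 448, 797, 382 and 252 TPM in control and 481, 563, 705 and 245 TPM in HMMR-Tg tumors.

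Nlrc5, the class I regulator, was at 27.2, 37.9, 4.74 and 35.3 TPM in control and 14.8, 39.8, 33.3 and 25.8 TPM in HMMR-Tg tumors. Tumor 3, the lowest in most class I genes, stood well under the others. The log2 difference between genotypes was 0.35 (SE 0.59), and -0.30 without tumor 3.

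**Figure D3:**
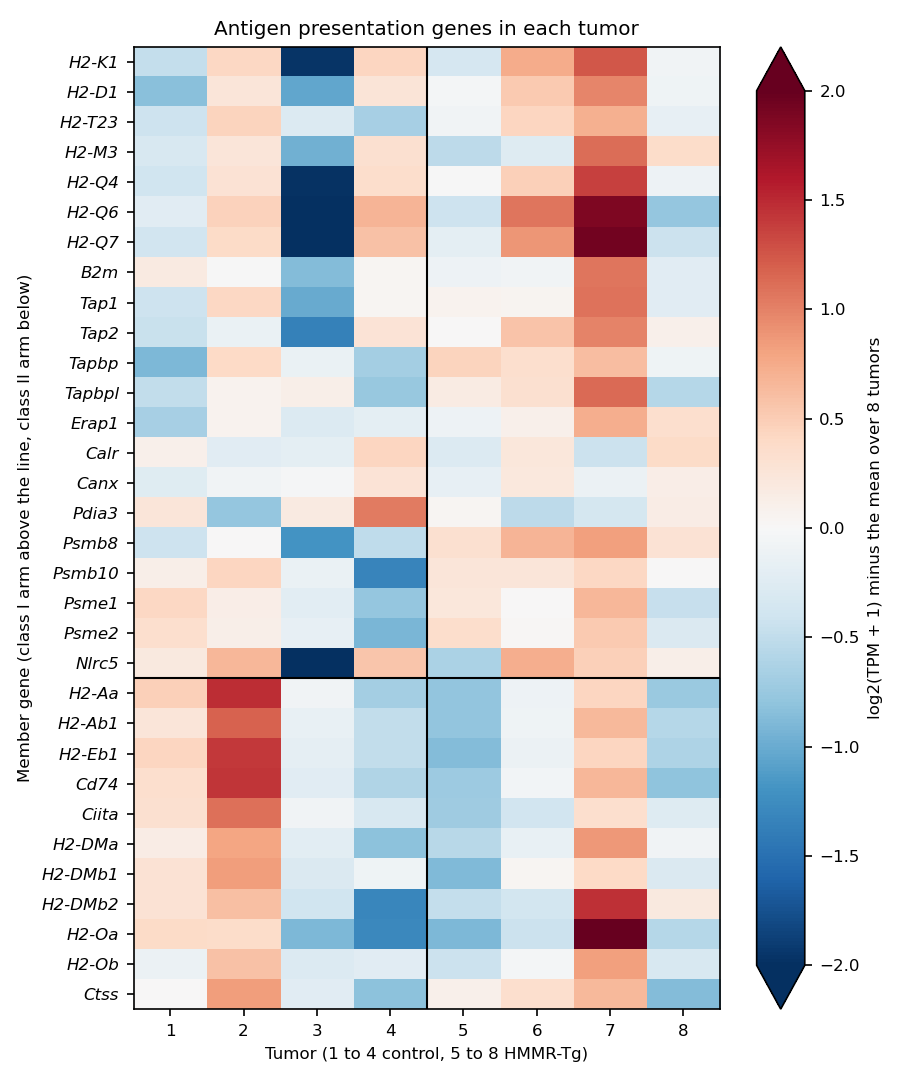
Log2(TPM + 1) of the 32 genes in each tumor minus the mean of that gene over the 8 tumors (red above, blue below, colors end at 2 in either direction), with class I genes above the horizontal line and HMMR-Tg tumors right of the vertical line. Tumor 7 is red in both arms, tumor 3 is below the mean in most genes and bluest in class I, and tumor 2 is reddest in class II.

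The arms were then compared tumor by tumor. An arm level is the mean, over the arm's measured genes, of the log2 value minus the 8-tumor mean of that gene. The class I level was -0.24, 0.17, -0.91 and -0.03 in control and -0.05, 0.32, 0.80 and -0.08 in HMMR-Tg tumors. Its means were -0.25 ± 0.47 and 0.25 ± 0.41 (SD, n = 4 each), and the difference of 0.50 was 0.28 without control tumor 3 and 0.32 without HMMR-Tg tumor 7. The class II level was 0.25, 0.96, -0.27 and -0.65 in control and -0.64, -0.12, 0.92 and -0.45 in HMMR-Tg tumors, with means of 0.07 ± 0.70 and -0.07 ± 0.69. Both genotypes therefore spanned much of the range in either arm. Without control tumor 2 the class II difference between genotypes turned from -0.15 to 0.15, and without HMMR-Tg tumor 7 it was -0.48.

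Tumor 7 was high in both arms, with 18 of 21 class I genes and 11 of 11 class II genes above their means, and it was the highest tumor in 16 class I and 4 class II genes. Tumor 2 was above the mean in 16 of 21 class I and 11 of 11 class II genes, and it was the highest tumor in 1 class I and 7 class II genes. Tumor 3 was below the mean in 19 of 21 class I and 11 of 11 class II genes, and it was the lowest tumor in 11 class I genes and in no class II gene. Tumor 5 was the lowest in 6 of 11 class II genes and in no class I gene.

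**Figure D4:**
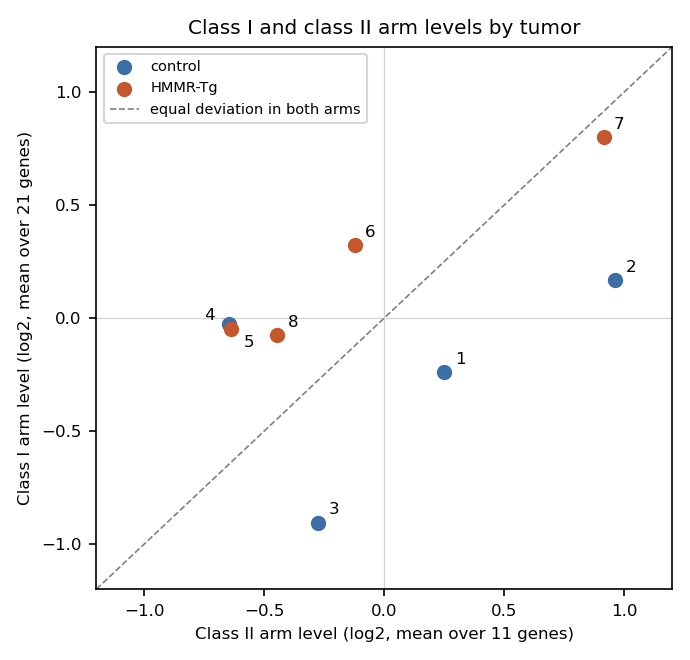
Class I arm level (y axis, mean over 21 genes) against class II arm level (x axis, mean over 11 genes), both as log2 deviation from the 8-tumor mean, with a numbered point for each tumor and a dashed line of equal deviation. Control tumors 1 to 3 and HMMR-Tg tumor 7 lie under the line, and control tumor 4 with HMMR-Tg tumors 5, 6 and 8 above it.

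The class I level minus the class II level was -0.49, -0.79, -0.63 and 0.62 in control and 0.59, 0.45, -0.11 and 0.37 in HMMR-Tg tumors. Control tumor 4 had the largest value of the 8 tumors, so the genotypes overlapped (-0.32 ± 0.64 against 0.32 ± 0.31, SD, n = 4 each). Summed TPM split the tumors along similar lines, except for tumor 7. The 7 heavy chains summed to 1627, 3052, 822 and 3053 TPM in control and 2081, 3807, 5623 and 2188 TPM in HMMR-Tg tumors. The 3 class II chains summed to 2064, 4082, 1439 and 1066 TPM in control and 894, 1470, 2225 and 1004 TPM in HMMR-Tg tumors. Heavy chain per class II chain was 0.788, 0.748, 0.571 and 2.86 in control and 2.33, 2.59, 2.53 and 2.18 in HMMR-Tg tumors. By this ratio the tumors lay in separate sets. The class II chain sum was the larger in control tumors 1 to 3. The heavy chain sum was 2.18 to 2.86 times the class II chain sum in control tumor 4 and all 4 HMMR-Tg tumors. No test was made of this ratio, which was computed over genes chosen with results known. H2-K1 per H2-Aa gave the same sets, at 0.497 to 0.958 in control tumors 1 to 3 and 2.54 to 3.98 in the other tumors. Both genes are large parts of these sums, so this is not separate evidence. B2m per Cd74, which are not in the sums, did not part the sets as widely. It was 1.64, 0.666, 1.17 and 2.83 in control and 2.80, 1.79, 2.39 and 2.71 in HMMR-Tg tumors. By this pair class I was the larger in all but control tumor 2, and tumors 1 and 6 were nearly level. All 32 genes together took between 0.750% (tumor 3) and 1.83% (tumor 7) of all TPM.

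The class I arm was not uniform within a tumor. In control tumor 4 the heavy chain level was 0.28 and the chaperone level 0.58 above the 8-tumor mean, while the immunoproteasome level was -0.88, the lowest of all tumors. In control tumor 3 the heavy chain level was -1.67, against -0.42 for the immunoproteasome and -0.02 for the chaperones. In tumor 7 the heavy chains (1.32), peptide loading (0.91) and immunoproteasome (0.60) were each at their highest and the chaperones were at -0.30. The summed heavy chains per B2m ranged from 0.651 in tumor 1 to 1.83 in tumor 6.

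Levels of each regulator were compared with those of its known targets across the 8 tumors, as Pearson and Spearman correlations of log2(TPM + 1) with exact permutation p-values adjusted over 11 pairs. Ciita ran with all 5 class II genes tested. Pearson's r was 0.95 with H2-Aa (adjusted exact p = 0.00427), 0.95 with H2-Ab1 (0.00314), 0.97 with H2-Eb1 (0.00314), 0.93 with Cd74 (0.00505) and 0.83 with H2-DMa (0.0165). Spearman's rho was between 0.76 and 0.88 with adjusted exact p-values between 0.0564 and 0.0674. With tumors 2 and 5 left out, the farthest from the median of Ciita, r was 0.84, 0.84, 0.87, 0.81 and 0.76. Without control tumor 2 alone, the exact adjusted p of Cd74 was 0.0541 and that of H2-DMa 0.0589, both above 0.05. The 3 tumors with most Ciita, 2, 7 and 1, were also the 3 highest in each of these 5 genes.

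Nlrc5 ran with H2-K1 at r = 0.90 (adjusted exact p = 0.00857, Spearman's rho 0.76, adjusted exact p = 0.0674). This relation rests on control tumor 3, since r was 0.68 without tumors 3 and 5 and 0.68 without tumor 3 alone (adjusted exact p = 0.146). The r of Nlrc5 was 0.71 with H2-D1 (rho 0.74), 0.66 with B2m (rho 0.52) and 0.69 with Tap1 (rho 0.50), with adjusted exact p-values of 0.0676, 0.173 and 0.113 for r and of 0.0720, 0.238 and 0.238 for rho. Without tumors 3 and 5, these r values were 0.65, 0.05 and 0.47. With the mean of each genotype removed, 7 of 11 pairs passed by Pearson's r against 6 before. By Spearman's rho no pair had passed before, with a lowest adjusted exact p of 0.0564.

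Across the arms, B2m and Cd74 had r = 0.41 and rho = 0.62 (adjusted exact p = 0.325 and 0.158), and r was 0.45 without tumors 3 and 7. H2-K1 and H2-Aa had r = 0.19 and rho = 0.05 (adjusted exact p = 0.641 and 0.935), and r was 0.18 without tumors 3 and 7. The sets of 3 and 5 tumors seen in their ratio are each too small for a correlation within them.

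**Figure D5:**
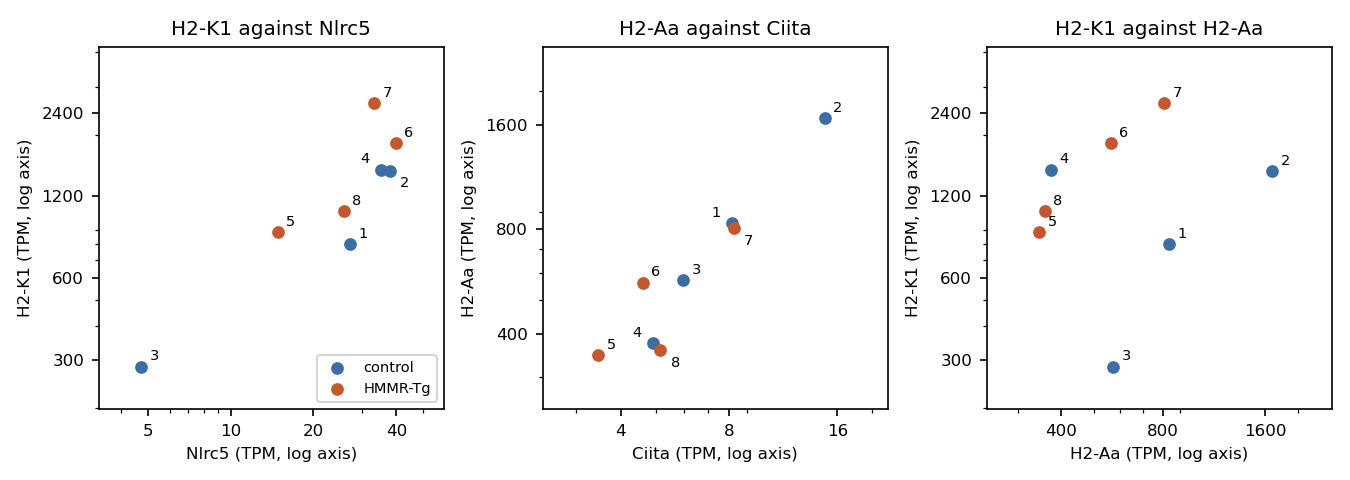
TPM on log axes for H2-K1 against Nlrc5, H2-Aa against Ciita and H2-K1 against H2-Aa, with a numbered point for each tumor, control in blue and HMMR-Tg in orange. Tumor 3 stands alone at 4.74 TPM of Nlrc5, H2-Aa runs with Ciita over all 8 tumors, and the third panel shows control tumors 1 to 3 below and right of the others.

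No gene of the wider pathway lists passed the adjusted test either. Among other class I heavy chains, 11 of 13 tested means were higher in HMMR-Tg tumors with a median log2 difference of 0.32. H2-T22, a ligand of some gamma delta T cells, was at 53.8 to 77.0 TPM in control and 76.0 to 126 TPM in HMMR-Tg tumors (0.53, limma unadjusted p = 0.0387). Among MHC transcription factors, 12 of 19 means were higher, with a median of 0.09. Rfxap, a subunit of the RFX complex that binds the X1 box, was at 42.9 to 56.3 TPM in control and 58.7 to 68.8 TPM in HMMR-Tg tumors (0.43, limma unadjusted p = 0.0386). It did not overlap between genotypes, as for 1.04% of all genes tested in that direction. H2-T22 and Rfxap had the smallest p of their lists, and 1.62% of all genes tested were higher at an unadjusted p under 0.05. Rfx5, another RFX subunit, lay between 10.3 and 30.8 TPM over all tumors.

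Interferon gamma is the best known inducer of both arms. Ifng was between 0.053 and 0.371 TPM in all 8 tumors. Irf1, an early target of its signal, was at 44.5, 106, 61.0 and 38.4 TPM in control and 86.6, 67.2, 83.0 and 43.4 TPM in HMMR-Tg tumors. Tumors 2, 5 and 7 were the highest, and the genotypes overlapped. The interferon gamma pathway list had 11 of 18 means higher with a median of 0.15, and the interferon-stimulated list 20 of 30 with a median of 0.04. The level of the latter, as mean log2 value, was 3.08 to 4.89 in control and 3.39 to 5.11 in HMMR-Tg tumors, lowest in tumor 4 and highest in tumor 5.

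Markers of cell types known to carry class II were examined beside the arm. Means of leukocyte markers were higher with HMMR-Tg in 10 of 10 cases with a median of 0.36, and macrophage markers in 12 of 14 with a median of 0.24, 0 of either past the test. The mean log2 level of the macrophage list was 5.29 to 6.70 in control and 6.03 to 6.61 in HMMR-Tg tumors, highest in tumors 2 and 7 and lowest in tumor 4. That of the leukocyte list was 4.00 to 5.23 and 4.59 to 5.45, also highest in tumors 7 and 2 and lowest in tumor 4. The dendritic cell list did not follow this order over its tested genes, which were 5 of 12 and include Bst2, also an interferon-stimulated gene. The untested genes of the list, each averaging under 1 TPM, were looked at after the data were seen. All of these but Cd209a were at their highest in tumor 7, at most at 3.70 TPM. The level of the tested dendritic cell genes was 4.59, 4.19, 4.49 and 3.63 in control and 4.37, 4.12, 4.44 and 3.61 in HMMR-Tg tumors. Of the 5 tested means 2 were higher with HMMR-Tg, with a median of -0.07, and 0 passed the test. In 10 pairs chosen after the data were seen, Cd74 had r = 0.74 and rho = 0.52 with the macrophage receptor gene Csf1r (exact p = 0.0350 and 0.197, adjusted exact p = 0.297 and 0.347), and r was 0.13 without tumors 2 and 7. Other marker genes moved differently when these tumors were left out. The r of Cd74 went from 0.60 to 0.25 with Ptprc and from 0.62 to 0.56 with the dendritic cell gene Itgax. With the epithelial gene Epcam it went from 0.47 to 0.67. H2-K1 and the leukocyte gene Ptprc had r = 0.00 and rho = 0.12 (adjusted exact p = 0.996 and 0.935), and r was -0.06 without tumors 3 and 7. The r of H2-K1 was 0.45 with Csf1r, 0.03 with Itgax and 0.43 with Epcam. Without tumors 3 and 7 these r values were 0.22, 0.02 and -0.09. None of the 10 pairs passed.

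Because H2-Oa is known from B cells, B cell genes were examined in tumor 7, and those named were picked after their values were seen. Cr2 was at 240 TPM in tumor 7 and at most 0.571 TPM in the other tumors. Cd79b (2.24 TPM) and Blk (1.26 TPM) were also at their highest in tumor 7, Ighm was at 13.7 TPM there, and Cd79a (0.197 TPM), Ms4a1 (0.438 TPM) and Pax5 (0.00637 TPM) were near 0. The level of the B cell list over its tested genes other than Cr2, a choice made after the data were seen, was 1.59 in tumor 7, against 2.94 in tumor 2 and 2.62 in tumor 5. The level of the endothelial list was 3.17 to 3.52 in control and 3.51 to 4.45 in HMMR-Tg tumors, and 3 of its 10 genes were higher with an unadjusted p under 0.05, against 1.62% of all genes tested in that direction. The skeletal muscle list was at 4.605, 4.83 and 2.76 in tumors 1, 6 and 3 and at most 0.94 elsewhere. Without these 3 tumors the class I difference was 0.16 in place of 0.50, and H2-K1 was -0.14 in place of 0.79. The part of these cell types in the results was not tested.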

How the data were processed

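RNA was measured by RNA-seq in 8 bulk mouse mammary tumors, 4 per genotype, and genotypes were taken from the titles of the labels. The deposited values are TPM per Ensembl gene identifier, computed by the authors, and 0 columns of the table were left unused. Its columns sum to between 994000.9 and 994984.0. Accounts of how they were made conflict. The study's methods describe TRIzol extraction, single-end reads, Kallisto and tximport, while the labels describe RNeasy extraction and TruSeq libraries, with bedtools, STAR 2.4.0f1 and SAMtools 0.1.18 among the tools of the submitters' processing notes. All name mm9, and the route of the table was not settled. It bears on genes with shared sequence, since a transcript quantifier divides such reads by estimation and an aligner may drop them.

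Symbols and mm9 coordinates came from GENCODE M1, with newer symbols from RefSeq, for 25388 of 35539 identifiers. The 14835 genes averaging 1 TPM or more were tested on log2(TPM + 1), a scale that understates changes of low genes, with limma 3.58.1 (R 4.3.3, trended empirical Bayes moderation, two-sided, Benjamini-Hochberg over all genes, threshold 0.05). Differences are HMMR-Tg minus control. Exact permutation tests used scipy 1.17.1, figures matplotlib 3.10.9, and tables pandas 2.3.3 with numpy 2.4.6 in Python 3.11.15. The limma step was also tested on simulated data. Alternatives were other pseudocounts (0.1 and 5), filters (none and 5 TPM), scalings (quantile, median-of-ratios, rescaling without mitochondrial, milk, immunoglobulin and hemoglobin genes) and moderation (no trend, robust, array weights), leaving out each tumor, and leaving out tumors 1, 3 and 6, whose skeletal muscle levels are the highest.

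The 34 genes, the 30 lists and the alternatives were chosen with earlier results of these data known, so gene counts and arm levels are given without a test. All 34 genes were to be named, and besides them the genes of the pairs and ratios, H2-Ea, Ifng, Irf1, Rfx5 and at most 2 genes with the smallest p of each list described. A further gene that this rule names is not reported here. Of the planned 12 pairs and 3 ratios, 11 and 2 were run, since the level of Psmb9 was not analysed here.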

Additional observations from a re-analysis of the deposited data

Results flagged for a closer look

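In 74 groups of 4 tumors examined for a value far from the other 3, 3 were found. This share is no higher than the about 1 in 20 groups expected by chance. B2m was at 4602 TPM in HMMR-Tg tumor 7, against 1869 to 2083 TPM in the other HMMR-Tg tumors. Nlrc5 was at 4.74 TPM in control tumor 3, against 27.2 to 37.9 TPM in the other control tumors. H2-Oa was at 34.2 TPM in HMMR-Tg tumor 7, against 0.865 to 1.57 TPM in the other HMMR-Tg tumors.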

How the results depend on the processing

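No paired analysis was possible because the labels number the tumors 1 to 4 and 5 to 8, so the genotypes share no replicate number. Under the 19 alternatives of the limma fit, 0 of the 32 genes passed, with a lowest adjusted p of 0.626, and 20 genes kept their direction throughout. The 12 others turned under at least 1 alternative. Leaving out each tumor in turn gave log2 differences of -0.19 to 0.085 for Calr, -0.045 to 0.13 for Canx, -0.0045 to 0.41 for Psme1, -0.30 to 0.62 for Nlrc5, -0.23 to 0.32 for H2-DMa, -0.012 to 0.68 for H2-DMb2, -0.27 to 1.14 for H2-Oa, -0.26 to 0.21 for H2-Ob and -0.15 to 0.42 for Ctss. Without tumors 1, 3 and 6 the log2 differences were -0.14 for H2-K1, -0.34 for H2-Q6, -0.056 for H2-Q7, -0.15 for Canx, -0.62 for Nlrc5, -0.16 for H2-Ob and -0.038 for Ctss. H2-Ob was at -0.011 with a pseudocount of 0.1, -0.011 with quantile normalization and -0.017 with the rescaled TPM, and Canx was at -0.020 and -0.019 in the latter pair. H2-DMa was at -0.0011 with the rescaled TPM. The cause of these turns was not tested.

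The number of genes with an unadjusted p under 0.05 was 2. It was 1 with quantile normalization, 1 with the rescaled TPM, 1 without a trend and 0 without tumors 1, 3 and 6, and between 1 and 5 when a tumor was left out. The number of class II genes with a higher mean was 5, was 3 with the rescaled TPM and 3 without tumors 1, 3 and 6, and lay between 0 (without tumor 7) and 5 when a tumor was left out. The log2 ratio of Psmb10 to Psmb7, which differed by 0.01, differed by -0.018 with a pseudocount of 5, by -0.36 without tumors 1, 3 and 6, and by -0.20 to 0.44 when a tumor was left out. The cause was not tested. The genotype differences in arm level moved by less than the SD among tumors under all alternatives run. That SD is about as large as the class I difference and larger than the class II one, so this says little about stability. When a tumor was left out, the class I difference lay between 0.28 and 0.64. The class II difference lay between -0.48 and 0.15 and so changed sign. Between 4 and 7 of the 11 pairs passed by Pearson's r when a tumor was left out, against 6. The pairs were not run without tumors 1, 3 and 6, which leaves too few tumors. TPM keeps no depth, so what depth limits could not be assessed.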

Other observations

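H2-M2, a class I heavy chain gene outside the 34 that was picked after its values were seen, was at 19.4, 37.9, 3.55 and 1.56 TPM in control tumors 1 to 4 and at 2.79, 6.75, 85.1 and 7.94 TPM in HMMR-Tg tumors 5 to 8. Its highest tumors were 7, 2 and 1, which were also the 3 highest in H2-Aa, H2-Ab1, H2-Eb1, Cd74 and Ciita, and its lowest was tumor 4. The genotypes overlapped, with a log2 difference of 0.32 that did not pass the test (limma, unadjusted p = 0.769).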
